A study of Mus musculus with 12 samples.

Results

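The 39 genes described here went up upon OHT treatment in mock ESCs and moved little or went down in the ESC lines that carried a Ring1B construct. They were chosen from 13662 measured genes by their change in log2 signal from before OHT to day 2 of OHT treatment. A gene was kept when this change was 0.8 or more in the mock line and below 0.3 in each of the 3 lines with a catalytically impaired Ring1B and each of the 2 lines with WT Ring1B. Symbols of 11 developmental families (starting with Hox, Zic, Pax, Tbx, Irx, Lhx, Fox, Sox, Wnt, Col or Kcn) were to be left out, which removed 0 genes. Because the mock condition was 1 line with 1 array at each time, and the changes chose the genes, they are described without a test, and "rose" means here only that a change reached 0.8.

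All groups were 129/B6 hybrid ESCs of the genotype Ring1A-/-;Ring1B fl/fl;Rosa26::CreERT2, so the untreated controls also lacked Ring1A. OHT (4-hydroxytamoxifen) was given at 800 nM for 24 hours to activate Cre expressed from the Rosa26 locus, and treated arrays (OHT+) were compared with untreated arrays (OHT-) of the same line. The lines stably carried an empty vector (mock), WT Ring1B (WT #1 and WT #3), Ring1B with the I53S substitution (I53S #1 and I53S #4) or Ring1B with the I53A substitution (I53A #1). There were 12 arrays from 6 lines, and mock and I53A rest on 1 line each. The spread between lines of one construct therefore stands in for replicate error, and it may include differences between lines that have nothing to do with the construct.

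Ring1B is the ubiquitin ligase subunit of Polycomb repressive complex 1 (PRC1), which monoubiquitinates histone H2A and keeps developmental genes silent in ESCs. Isoleucine 53 lies on the RING finger surface that contacts the E2 enzyme, and changing it impairs H2A ubiquitination. A gene that rose without Ring1B but was held down by the I53 mutants would be of interest, because it would need Ring1B but not its ligase activity. The genes of this rule are described by their levels, their other probe sets and the same rule read on each other line. Whether they form such a class was not tested.

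The cells carried ESC markers on every array: Pou5f1, the core pluripotency factor, had a log2 signal between 12.34 and 12.87, and Nanog one between 12.36 and 12.72. The 10 markers of undifferentiated ESCs had a median change of -0.19 in mock, with 3 of 10 above 0. In mock Pou5f1 changed by -0.49, Sox2 by -0.59, Nanog by 0.25 and Klf4 by 1.01. The median was -0.18 in I53S #1, -0.29 in I53S #4, -0.22 in I53A #1, 0.02 in WT #1 and 0.07 in WT #3. Rnf2, which encodes Ring1B, ranged from 7.06 to 7.58, but the sources used here do not say where its probe sets lie relative to the deleted part, so it does not check the deletion. Markers of fibroblasts, which the labels name as possible feeder cells, had a median change of 0.71 in mock, with 17 of 19 above 0. Their median change was 0.69 in I53S #1, 0.24 in I53S #4, 0.19 in I53A #1, 0.06 in WT #1 and 0.02 in WT #3. The summed fibroblast signal was 13.53 before and 14.05 after OHT in mock on the log2 scale, against 12.43 to 12.76 in the WT lines and 12.48 to 14.13 in the mutant lines. Primitive endoderm markers had a median change of 1.28 in mock, with 7 of 8 above 0, and trophectoderm markers one of 0.78, with 7 of 7 above 0. In I53S #1, I53S #4 and I53A #1 these medians were 0.59, 0.25 and 0.32 for primitive endoderm and 0.68, 0.41 and 0.61 for trophectoderm. In WT #1 and WT #3 they were -0.15 and 0.07, and -0.06 and 0.10. Pdgfra, with a change of 1.87 in mock, counts in both the fibroblast and the primitive endoderm list. None of the 39 genes (0 of 39) is in these marker lists, and the part of such cells in their changes was not tested.

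The genes that rose in mock were far more numerous than the 39. In mock, 1004 genes (7.35% of those measured) reached a change of 0.8, against 867 (6.35%) in I53S #1, 715 (5.23%) in I53S #4, 817 (5.98%) in I53A #1, 271 (1.98%) in WT #1 and 197 (1.44%) in WT #3. Of the 1004 genes, 941 had a change of 0.3 or more in some mutant line and 616 in each of the 3. Only 63 stayed below 0.3 in each mutant line, and 24 of these were at 0.3 or above in a WT line. The remaining 39, or 0.285% of the measured genes, are the genes described here. Without quantile normalization 9 genes met the rule, 7 of them among the 39, with a median change of all genes in mock of -0.36; with arrays centred on their medians 44 did, 33 of them among the 39.

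The same rule was then read on each line in turn. As in mock, 39 genes (0.285%) rose in I53A #1 and stayed below 0.3 in the 5 other lines. The number was 37 (0.271%) for WT #1, 27 (0.198%) for WT #3, 19 (0.139%) for I53S #1 and 16 (0.117%) for I53S #4. Genes that fell by 0.8 or more in 1 line and stayed above -0.3 in the others numbered 39 in mock, 41 in WT #1, 31 in WT #3, 23 in I53S #1, 16 in I53S #4 and 31 in I53A #1. WT #1, which still had WT Ring1B after OHT, thus gave almost as many genes of its own as the mock line, and WT #3 gave fewer. For mock, WT #1 and WT #3 the numbers moved with the processing. They were 9, 93 and 26 with values as deposited and 19, 26 and 13 with a filter on the mean above 5. With centred arrays they were 44, 39 and 35, and with the brightest probe set 47, 46 and 26. The count of 39 by itself does not set mock apart from WT #1 or I53A #1. The genes are named below for their rule only, and whether mutant Ring1B held them down was not tested.

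**Figure D1:**
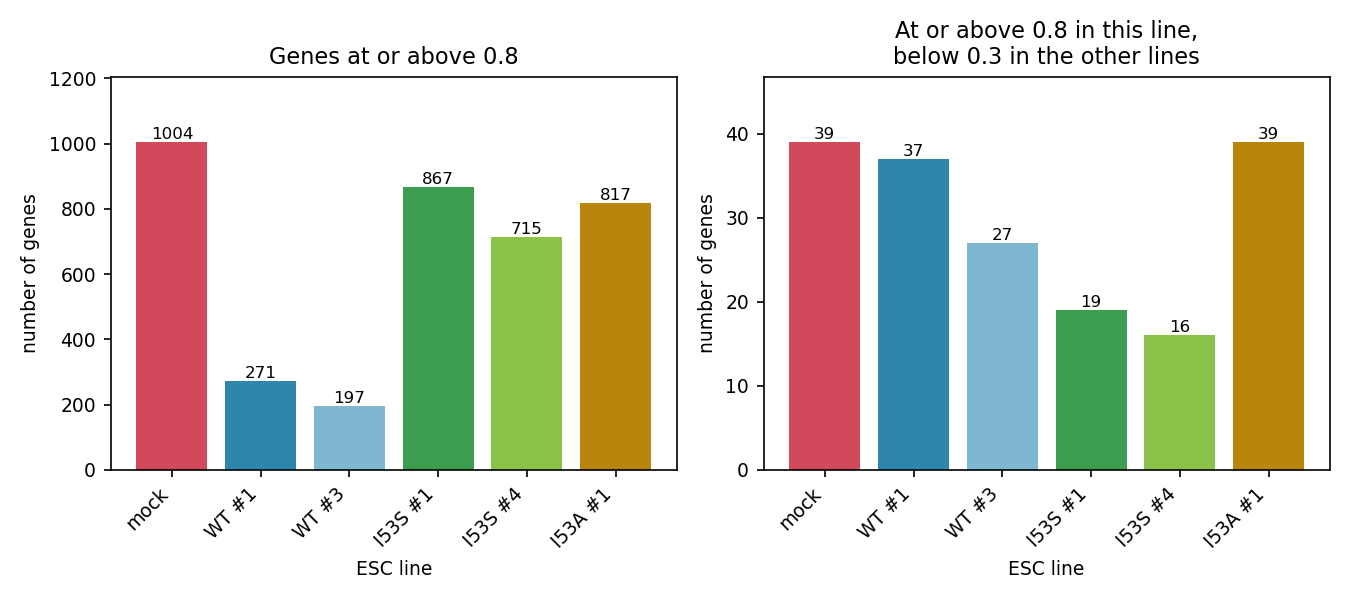
The bars give the number of genes for each ESC line, with both axes starting at 0: on the left, genes whose log2 change upon OHT was 0.8 or more; on the right, those of them that stayed below 0.3 in the 5 other lines. Mock has the most genes on the left (1004), whereas on the right mock and I53A #1 have 39 each and WT #1 has 37.

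The changes in mock ranged from 0.80 to 1.60, with a median of 0.99. The largest was that of Cabyr, which encodes a calcium-binding protein of the sperm tail sheath, and the next were Myoz1 (1.53), a calcineurin-binding protein of the muscle Z-disc, and Prodh2 (1.51), a mitochondrial hydroxyproline dehydrogenase. Medians of the 39 genes in the other lines were -0.16 in WT #1, -0.09 in WT #3, -0.16 in I53S #1, 0.00 in I53S #4 and -0.09 in I53A #1. The rule set no lower limit there, and 23 of the 39 genes had a change of -0.5 or lower in at least 1 other line, 17 of them in a WT line and 12 in a mutant line. In WT #1 alone 11 of 39 were that low, beside 4.76% of all genes, and in I53S #1 it was 6 of 39, beside 7.69% of all genes. These shares are not a like background, and nothing is read from them. All genes were not held below 0.3, and 13.3% of them had a mean signal below 5, against 53.8% of the 39.

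**Figure D2:**
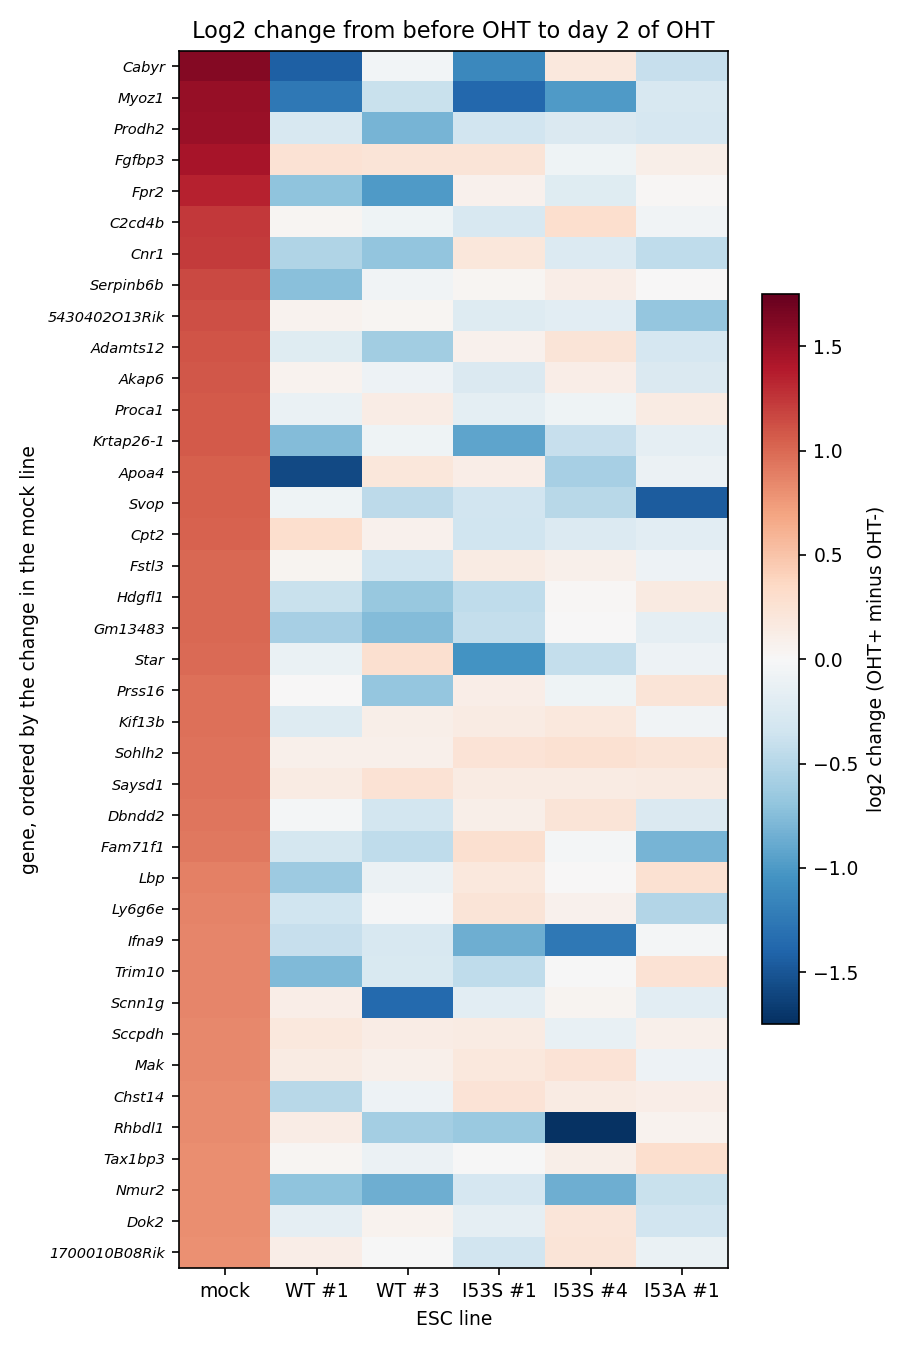
The heat map gives the log2 change upon OHT (colour) for each of the 39 genes (rows, ordered by the change in mock) in each of the 6 ESC lines (columns). The mock column runs from 1.60 at the top to 0.80 at the bottom, and the other columns hold no value above 0.29 but reach down to -1.73 (Rhbdl1 in I53S #4).

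In 10 of the 39 genes, the change in each of the 5 other lines lay within 0.3 of 0 in either direction, or 25.6% of the 39. Of all measured genes below 0.3 in these 5 lines, the condition the rule set, 55.9% were within 0.3 of 0. They were Fgfbp3, C2cd4b, Akap6, Proca1, Kif13b, Sohlh2, Saysd1, Sccpdh, Mak and Tax1bp3, a subset named after their values were seen. Of these, 5 also had their highest signal of all 12 arrays on the mock OHT+ array: Fgfbp3, C2cd4b, Kif13b, Saysd1 and Sccpdh. RefSeq promoters (GRCm38.p6, 250 bases before to 50 after the start) were at hand for all of these except Kif13b, and are shown because PRC1 targets in ESCs are known for promoters rich in CpG. CpG dinucleotides are in capitals, and each sequence reads 5′ to 3′ along the gene's own strand:

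Fgfbp3: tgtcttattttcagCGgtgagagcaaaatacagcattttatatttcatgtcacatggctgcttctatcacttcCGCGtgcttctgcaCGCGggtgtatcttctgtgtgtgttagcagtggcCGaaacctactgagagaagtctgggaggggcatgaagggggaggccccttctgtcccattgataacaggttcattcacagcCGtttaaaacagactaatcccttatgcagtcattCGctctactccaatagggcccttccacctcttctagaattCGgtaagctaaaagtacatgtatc

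C2cd4b: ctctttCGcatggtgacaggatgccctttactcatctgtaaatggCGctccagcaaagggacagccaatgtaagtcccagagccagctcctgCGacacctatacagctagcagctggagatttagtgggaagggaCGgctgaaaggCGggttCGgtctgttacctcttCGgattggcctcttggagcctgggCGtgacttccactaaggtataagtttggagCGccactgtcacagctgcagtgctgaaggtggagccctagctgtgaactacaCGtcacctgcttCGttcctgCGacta

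Saysd1: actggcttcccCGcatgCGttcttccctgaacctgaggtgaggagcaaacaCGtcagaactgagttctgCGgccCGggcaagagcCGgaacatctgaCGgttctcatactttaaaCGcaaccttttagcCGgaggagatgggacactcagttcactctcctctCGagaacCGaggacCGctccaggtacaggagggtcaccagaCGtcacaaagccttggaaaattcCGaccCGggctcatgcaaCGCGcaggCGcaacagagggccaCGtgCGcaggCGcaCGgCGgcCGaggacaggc

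Sccpdh: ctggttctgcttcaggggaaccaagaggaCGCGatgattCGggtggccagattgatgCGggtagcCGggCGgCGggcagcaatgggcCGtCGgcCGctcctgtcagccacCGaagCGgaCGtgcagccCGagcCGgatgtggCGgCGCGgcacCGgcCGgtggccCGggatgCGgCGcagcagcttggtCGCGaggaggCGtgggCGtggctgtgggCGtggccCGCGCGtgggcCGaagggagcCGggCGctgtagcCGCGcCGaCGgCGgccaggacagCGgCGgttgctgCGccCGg

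The promoters lay at chr19:36919550-36919849 on the minus strand (Fgfbp3), chr9:67759187-67759486 on the plus strand (C2cd4b), chr14:20083123-20083422 on the minus strand (Saysd1) and chr1:179667981-179668280 on the plus strand (Sccpdh). They ran from poor to rich in CpG, with 9 CpG in Fgfbp3, 12 in C2cd4b, 24 in Saysd1 and 43 in Sccpdh. The observed over expected CpG ratio was 0.55, 0.54, 0.89 and 1.07 in the same order. Over all measured genes with a promoter the medians were 20 CpG and a ratio of 0.75. Of the motifs searched on both strands, the E-box CACGTG occurred in Saysd1, GGGCGG in Sccpdh, CCAAT in Fgfbp3 and C2cd4b and TATAAA in Fgfbp3, while GCGGGA, which can overlap GGGCGG, occurred in none of the 4. Among the 10952 measured genes with a promoter in the table, 10.2% hold CACGTG, 62.7% GGGCGG, 38.2% CCAAT, 7.41% TATAAA and 34.7% GCGGGA. Only 28 of the 39 genes (71.8%) had a promoter there, which is too few for the promoters of the 39 to be compared with those of other genes.

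Fgfbp3 encodes a secreted carrier of fibroblast growth factors. Its log2 signal was 3.71 before and 5.15 after OHT in mock, 3.62 and 3.86 in WT #1, 3.54 and 3.77 in WT #3, 4.84 and 5.05 in I53S #1, 4.83 and 4.75 in I53S #4, and 3.90 and 4.00 in I53A #1. The mock line thus started with the WT and I53A lines and ended just above both I53S lines, which were high at both times. For C2cd4b, a C2 domain gene, mock went from 5.65 to 6.89, which is close to the 6.81 and 6.85 of WT #1, while the other 8 arrays lay between 6.04 and 6.72. Before OHT the mock array was the lowest of the 6 untreated arrays for C2cd4b, but not for Fgfbp3.

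Kif13b, a kinesin motor, ended above every other array. It went from 5.78 to 6.75 in mock, whereas the other 10 arrays lay between 5.43 (WT #3 OHT-) and 6.16 (WT #1 OHT-). Before OHT its mock value was above the median of the untreated arrays. Saysd1 went from 5.28 to 6.23 in mock, and all 10 other arrays lay within 5.44 to 5.80, although each of the 5 other lines also moved up, by 0.14 to 0.25. With values as deposited, the mock change was -0.14 for Saysd1 and 0.25 for Kif13b. Sccpdh, a saccharopine dehydrogenase-like gene, went from 5.76 to 6.60 in mock, which equals I53S #1 OHT+ to 2 decimals, and mock was the lowest array before OHT. Kif13b, Saysd1 and Sccpdh were averages of 2 probe sets each, and in none of them did both reach 0.8 in mock. Read from the brighter probe set alone, the mock change was 0.60 for Kif13b, 0.19 for Saysd1 and 1.32 for Sccpdh.

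In the other 5 of the 10 genes the mock line started low and ended within the range of the other lines. Sohlh2, a bHLH transcription factor of early germ cells, was the brightest of the 39 with a mean of 9.39. It went from 8.75 to 9.70 in mock, and from 9.36 to 9.45 in WT #1, 9.14 to 9.23 in WT #3, 9.09 to 9.33 in I53S #1, 9.16 to 9.43 in I53S #4 and 9.90 to 10.12 in I53A #1. All lines moved up, and I53A #1 was above mock OHT+ at both times. Proca1, named for its partner cyclin A1, went from 4.33 to 5.40 in mock, where the other arrays were at 5.10 to 5.96. Mak, a kinase of male germ cells, went from 5.17 to 6.01 with the others at 5.72 to 6.36. Akap6, an anchor of protein kinase A, went from 3.90 to 5.0 with the others at 4.29 to 5.16, and Tax1bp3, a PDZ domain protein, from 7.46 to 8.28 with the others at 7.50 to 8.31.

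**Figure D3:**
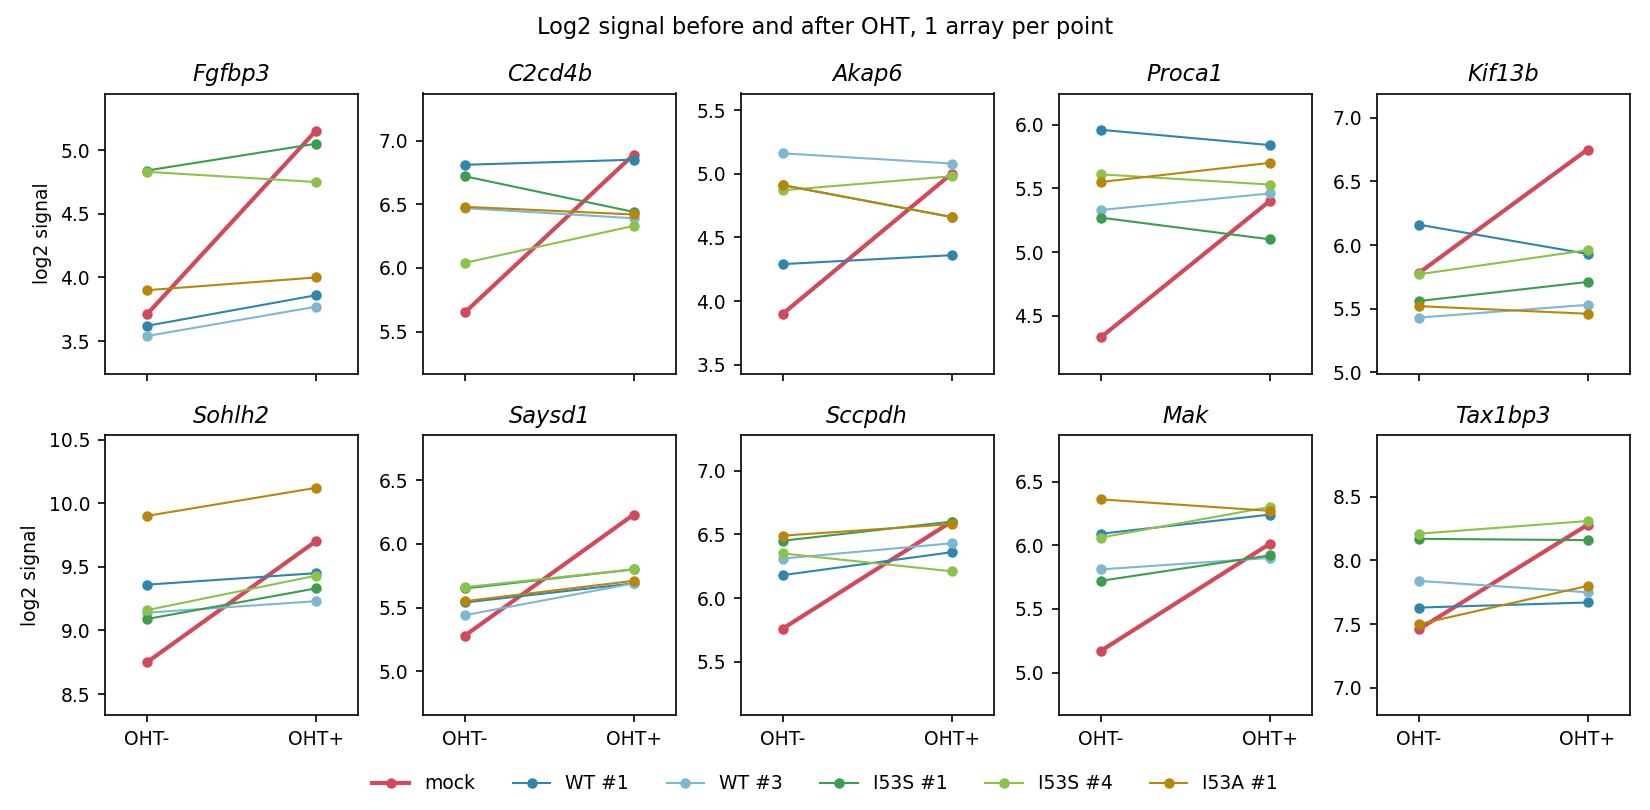
Each panel gives the log2 signal of 1 gene before (OHT-) and after OHT (OHT+), with 1 line per ESC line, 1 array per point, no error bars and the same height of 2.2 log2 units on every y axis. Mock (thick) has the steepest rise in all 10 panels, ending above all of them in Fgfbp3, C2cd4b, Kif13b, Saysd1 and, by less than 0.01, Sccpdh.

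This position of the mock line was examined over all 39 genes. Before OHT, mock was below the median of the 5 other untreated arrays in 38 of 39 genes, with a median difference of -0.59. After OHT it was above the median of the 5 other treated arrays in 35 of 39, by a median of 0.52. The mock OHT- array was the lowest of the 6 untreated arrays in 29 of the 39, whereas it was so in 19.2% of all genes, 37.1% of the 1004 genes that rose in mock and 29.2% of the 72 genes described below. The mock OHT+ array was the highest of all 12 in 16 of 39, against 9.64% of all genes, 35.4% of the 1004 and 30.6% of the 72. Both held for 10 genes, and only 6 were highest after OHT without starting lowest. These ranks use the arrays that chose the genes, and are given as a description. The low mock value before OHT and the high one after it were thus of similar size.

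**Figure D4:**
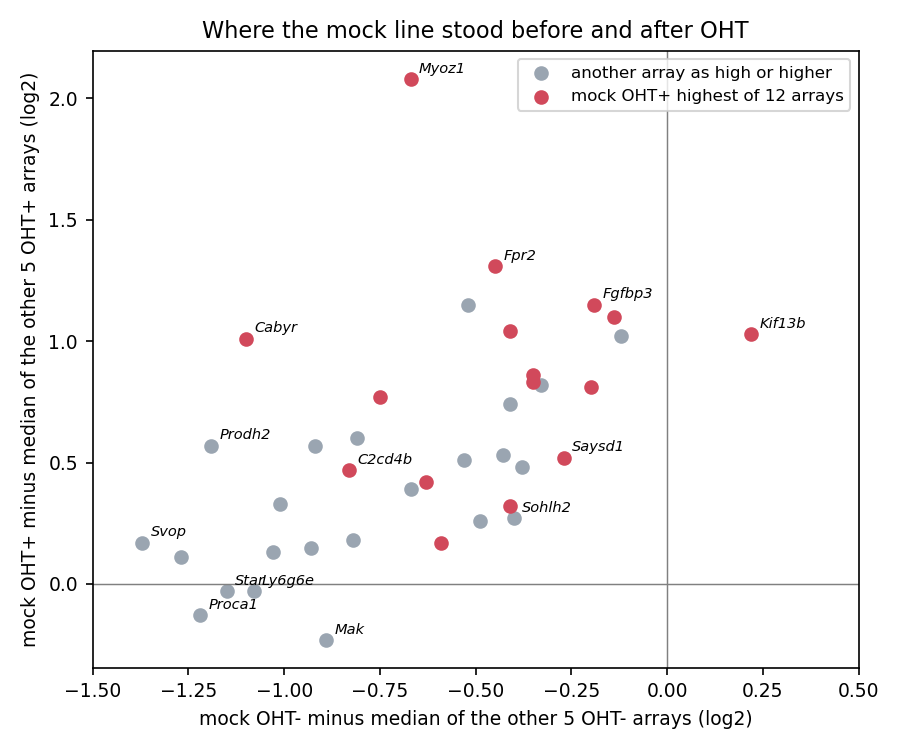
Each point is 1 of the 39 genes. The x axis gives the log2 signal of mock OHT- minus the median of the 5 other untreated arrays, and the y axis that of mock OHT+ minus the median of the 5 other treated arrays; red marks the 16 genes whose mock OHT+ array was the highest of 12. All but 1 gene (Kif13b) lie left of 0, and genes such as Svop, Proca1, Star and Ly6g6e lie far left and near 0 in height.

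The genes had low signals. The mean over the 12 arrays ranged from 3.96 (Apoa4) to 9.39 (Sohlh2) with a median of 4.85, against 6.90 for all genes and 5.50 for the 1004. In 21 of the 39 (53.8%) the mean was below 5, which was so for 13.3% of all genes and 32.0% of the 1004. Only 4, Sohlh2, Tax1bp3, Ly6g6e and Prss16, had a mean above 7. Cabyr, Fpr2 and 5430402O13Rik (3 genes) entered the measured set only through the mock OHT+ array, the sole array on which they passed a signal of 5. They had to be high there, whereas the other 36 passed on at least 1 other array. In some of the 36 that was a single untreated array of another line, which had to be high in turn. Such genes were Apoa4 and Trim10 (WT #1), Scnn1g (WT #3), Svop (I53A #1) and Prodh2 (I53S #1). Others passed only on untreated arrays of more than 1 other line. They were Krtap26-1 (WT #1 and I53S #1), Nmur2 (WT #3 and I53A #1), Ifna9 (I53S #1 and I53S #4) and Fam71f1 (WT #1 and WT #3). The filter thus favoured the falls of all these genes in those lines, and nothing is read from these falls.

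**Figure D5:**
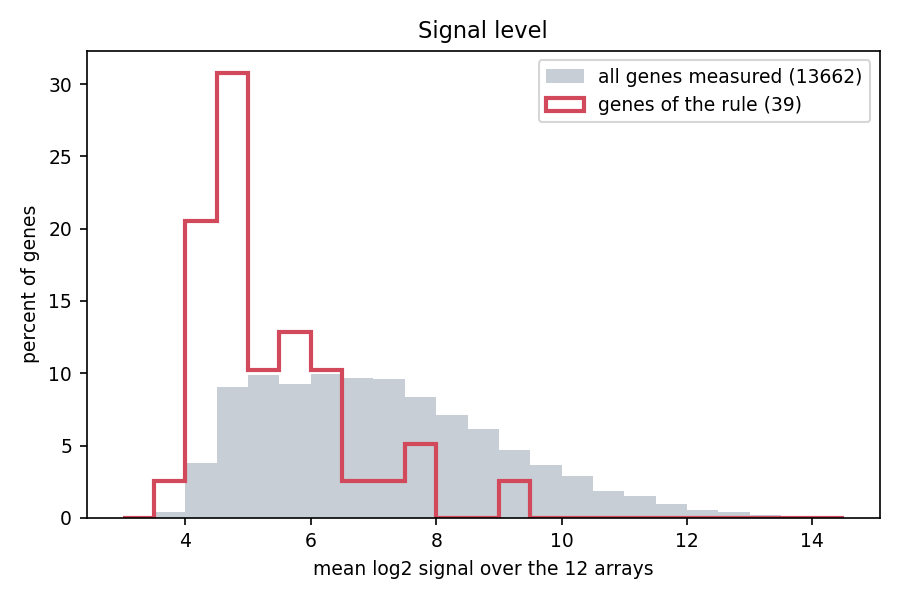
The histograms give the percent of genes (y axis, from 0) by mean log2 signal over the 12 arrays (x axis, bins of 0.5), for all 13662 measured genes (grey) and the 39 genes (red outline). The 39 genes have a median of 4.85 and lie mostly between 4 and 6.5, and all genes have a median of 6.90.

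Probe sets that were measured but not used did not enter the changes that chose the genes. They were those with a signal of 5 or less on every array, mock OHT+ included, so they are dim. A probe set that rose past 5 in mock would have been used, so these were chosen for not being high there. For 13 of the 39 genes there were 18 such probe sets. None of the 18 (0) had a change of 0.8 or more in mock, 9 were above 0, and their median was -0.01. Of 10880 such probe sets over all genes, 50.8% were above 0 and 4.05% reached 0.8, and nothing is read from the 18. Of the 39 genes, 34 were read by 1 probe set, against 55.1% of all genes. In 1 of the 5 genes with several, Dbndd2, all used probe sets reached 0.8, and the others were Cpt2, Kif13b, Saysd1 and Sccpdh.

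By what they are known for, the genes fell into no single group, and the groups below were written after the values were seen. The 5 germ cell genes, Cabyr, Sohlh2, Mak, Proca1 and Fam71f1, had changes of 0.84 to 1.60 in mock. In all 5 the mock OHT- array was the lowest of the untreated arrays, and in 1, Cabyr, the mock OHT+ array was the highest. Cabyr went from 3.45 to 5.05 in mock, but from 5.0 to 3.57 in WT #1 and from 4.75 to 3.62 in I53S #1, with WT #3 at 4.09 and 4.04, I53S #4 at 4.00 and 4.19 and I53A #1 at 4.55 and 4.14. The value after OHT in mock was thus nearly that of WT #1 and I53S #1 before OHT.

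The 6 genes of metabolism and lipid transport were Prodh2, Apoa4, Cpt2, Star, Sccpdh and Chst14. Prodh2 went from 3.20 to 4.71 in mock and was lower after OHT in each of the other 5 lines, with changes from -0.81 in WT #3 to -0.25 in I53S #4, and with the other 10 arrays at 3.47 to 5.01. Cpt2, the carnitine palmitoyltransferase of the inner mitochondrial membrane, was 5.96 and 6.98 in mock, 5.93 and 6.22 in WT #1, 6.33 and 6.40 in WT #3, 6.16 and 5.81 in I53S #1, 6.14 and 5.90 in I53S #4, and 6.36 and 6.17 in I53A #1. Its mock OHT+ value was the highest of the 12, its start was within the other lines, and the 3 mutant lines moved down while the WT lines moved up. Its brighter probe set alone changed by 0.54 in mock. Star, which carries cholesterol into mitochondria for steroid synthesis, went from 4.38 to 5.37 in mock, but 7 other arrays were at or above that value. Apoa4, an apolipoprotein of the gut, changed by 1.05 in mock and by -1.58 in WT #1. Chst14, a sulfotransferase of dermatan sulfate synthesis, went from 6.23 to 7.06, just above the 6.36 to 6.98 of the other arrays.

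Of cell surface receptors and channels there were 4, all with a mean below 5. Fpr2, the formyl peptide receptor of phagocytes, went from 3.71 to 5.05 in mock, while it was 4.36 and 3.65 in WT #1, 4.70 and 3.71 in WT #3, 4.16 and 4.23 in I53S #1, 4.14 and 3.93 in I53S #4, and 3.71 and 3.73 in I53A #1. The mutant lines changed by -0.21 to 0.07, and both WT lines went down. Cnr1, the cannabinoid receptor of neurons, went from 4.09 to 5.32 in mock with 4.21 to 5.24 on the other arrays. Nmur2, a neuromedin U receptor, changed by 0.81 in mock and by -0.86 to -0.30 in the other lines, and 5 other arrays were at or above its mock OHT+ value. It passed the signal limit of 5 only on the untreated WT #3 and I53A #1 arrays (5.7 and 5.05), so nothing is read from its falls. Scnn1g, a subunit of the epithelial sodium channel, changed by 0.85 in mock and by -1.36 in WT #3.

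The 5 genes of secreted factors and extracellular proteases included Fgfbp3, described above. Fstl3, an extracellular binder of activin, went from 5.43 to 6.44 in mock against 5.43 to 6.40 on the other arrays, of which the I53S lines were the highest at 6.13 to 6.40. Adamts12, a secreted metalloproteinase, went from 4.27 to 5.37, below the 5.41 and 5.49 of I53S #1. Lbp, which binds lipopolysaccharide, and Ifna9, a type I interferon, had changes of 0.88 and 0.85. Interferon alpha genes are nearly identical copies of one another, so that the Ifna9 signal may come from relatives. In I53S #4 Ifna9 changed by -1.25, but it passed the signal limit of 5 only on the untreated I53S arrays, so nothing is read from this fall.

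Other genes of immune and blood cells (4) were Prss16 (0.97), a protease of the thymus, Ly6g6e (0.87), of the Ly6 surface protein family, Trim10 (0.85), known from erythroid cells, and Dok2 (0.81), an adaptor in blood cell signalling. In 4 of 4 the mock OHT- array was the lowest untreated array, and in 0 of 4 the mock OHT+ array was the highest. Scaffold, motor and structural proteins (5) were Myoz1, Akap6, Krtap26-1, Kif13b and Tax1bp3. Myoz1 went from 4.66 to 6.19 in mock, but from 5.33 to 4.08 in WT #1, 4.50 to 4.11 in WT #3, 5.41 to 4.03 in I53S #1, 5.90 to 4.91 in I53S #4 and 4.66 to 4.38 in I53A #1. All lines with a Ring1B construct moved down, so that mock OHT+ was 2.08 above the median of the other treated arrays, the largest such difference of the 39. Krtap26-1, a hair keratin partner, went from 3.65 to 4.71 in mock and was lower after OHT in each other line, with changes of -0.92 to -0.07. It passed the signal limit of 5 only on the untreated WT #1 and I53S #1 arrays (5.37 and 5.51), so nothing is read from its falls.

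The remaining named genes (7) were C2cd4b, Serpinb6b (1.15), Svop (1.04), Hdgfl1 (1.00), Saysd1, Dbndd2 (0.93) and Rhbdl1 (0.83). Serpinb6b, an intracellular protease inhibitor, went from 4.33 to 5.48 in mock and stayed at 5.56 and 5.68 in I53S #4. Svop, a transporter-like protein of synaptic vesicles, had the lowest start against the other lines, 1.37 below their median, and 4 other arrays were at or above its mock OHT+ value of 4.31. The 3 genes with clone or locus names were 5430402O13Rik (1.13), Gm13483 (1.00) and 1700010B08Rik (0.80).

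Classes read from the symbols of all measured genes put these numbers beside the background, although they miss members whose symbols do not show what they are, such as the channel subunit Scnn1g, the receptors Fpr2, Cnr1 and Nmur2, the synaptic vesicle protein Svop and the transcription factor Sohlh2. Developmental transcription factors outside the families left out, the best known targets of PRC1, numbered 244 (1.79% of genes). They made up 57 of the 1004 genes that rose in mock (5.68%), but by symbol 0 of the 39. Cytoskeletal and contractile genes had 3 of 39 (7.69%, against 1.74% of all genes), immune and interferon genes 3 (7.69% against 1.64%) and secreted signals and their receptors 2 (5.13% against 2.31%). No class by symbol was found for 24 of the 39 (61.5%), as for 63.6% of all genes. With counts this small nothing is read from any one class.

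The 72 genes that rose by 0.8 or more in mock and in each mutant line, and stayed below 0.3 in each WT line, are the opposite pattern, with the same symbols left out. Their mock change was larger, with a median of 1.41 against 0.99, and their mean level higher, with a median of 5.67 against 4.85. They included 8 developmental transcription factors (11.1%). Both sets were chosen on the changes, so these differences were not tested.

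Genes close to the limits had like values. Just inside the limit in mock were 1700010B08Rik (0.802), Dok2 (0.808) and Nmur2 (0.809), and just outside it Zbtb10 (0.799), Msl3 (0.793) and Cmah (0.793). The highest change in another line was 0.294 for Tax1bp3 and 0.286 for C2cd4b and Cpt2, against 0.306 for Kap and 0.310 for 2410124H12Rik and 2410004P03Rik outside the limit. Of the 39 genes, 13 had a mock change between 0.8 and 0.9, and 23 genes that met the other limit had one between 0.7 and 0.8. The genes were on 19 chromosomes, with 0 pairs within 100 kb of each other and 0 within 100 kb of a Hox gene. None (0) was on chromosome X, which holds 3.18% of the measured genes with a position. The pairs and the distance to Hox genes were not counted over all genes, so nothing is read from them.

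In the limma fit of all 12 arrays with the line as a block, 534 genes (3.91%) were called in mock at an adjusted p under 0.05, 378 of them higher (2.77%). Of the 39 genes 13 were among them, but the rule used that contrast and nothing is read from the number. The count rests on every line: with any 1 WT or mutant line left out of the fit, between 0 and 2 of the 39 were called, and without the line block 1 was.

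The limits on the changes did not use the mean level of a line over its 2 arrays. The filter on the highest signal did use each array. The mutant and WT lines were compared on this mean level with limma over all genes. No gene of the 13662 (0.0%) was called at an adjusted p under 0.05, and 1473 (10.8%) had an unadjusted p under 0.05. Of the 39 genes 6 did so, 3 higher and 3 lower in the mutant lines, and 0 were called (2, Serpinb6b and Fgfbp3, were with values as deposited). The smallest p was that of Apoa4, with a mean level of 4.38 in the WT lines and 3.59 in the mutant lines, a difference of -0.79 (SE 0.18, limma adjusted p = 0.282). Apoa4 passed the signal limit of 5 only on WT #1 OHT- (5.37), and Scnn1g only on WT #3 OHT- (5.24). Fam71f1 passed only on the untreated WT arrays (5.10 and 5.05), and Ifna9 only on the untreated I53S arrays (5.20 and 5.43). The filter thus favoured lower mutant levels in Apoa4, Scnn1g and Fam71f1 and higher ones in Ifna9, and nothing is read from their direction. Serpinb6b was higher in the mutant lines by 1.02 (SE 0.33, limma adjusted p = 0.378) and Fgfbp3 by 0.86. For Fgfbp3 the single arrays showed the I53S lines above the WT lines, while I53A #1 was close to the WT lines.

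Before OHT, when all lines still had their own Ring1B, limma called 0 genes (0.0%) between mutant and WT lines, with 665 (4.87%) at an unadjusted p under 0.05, among them 7 of the 39. After OHT it called 194 genes (1.42%), 174 of them higher in the mutant lines (1.27%), and 2401 (17.6%) had an unadjusted p under 0.05. Of the 39 genes 0 were called after OHT and 5 had an unadjusted p under 0.05, all 5 higher in the mutant lines. Both the untreated and the treated arrays entered the rule through the change of each line, so neither of these contrasts is free of it, and nothing is read from the 7 or the 5. A p above the threshold does not show that mutant and WT lines had the same level.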

How the data were processed

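RNA of 6 ESC lines was measured before and after OHT on Affymetrix mouse arrays with 45101 probe sets (the series' design text names the smaller 430A 2.0 array). The authors deposited log2 signals, made per the submitters' processing notes with RMA in Affymetrix Expression Console, no version named, while the study's supplementary methods describe MAS5 and quantile normalization. Array medians of the deposited log2 values ran from 4.66 to 5.67, so the arrays were quantile-normalized here (limma 3.58.1, R 4.3.3) after leaving out 64 control probe sets. Each array held only 2815 to 3553 distinct values, in steps of about 0.0488 to 0.0593 between 3.5 and 5, so dim signals are coarse.

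Of 45037 probe sets, 34945 map to 1 symbol, 932 to several and 9160 to none in the platform annotation; only the first were used. Those with a maximum above 5 (24065) were averaged per gene (13662 genes). Fold changes are differences of log2 signals.

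OHT effects by class were fitted with lmFit and eBayes (3 residual and 2.71 prior degrees of freedom, statmod 1.5.0 loaded) with the line as a block, because both arrays of a numbered line come from that line. Their deviations from the class mean correlated at 0.35 (WT) and 0.45 to 0.51 (mutant). Mock takes its spread from the other lines. Mean levels were compared between 3 mutant and 2 WT lines. P-values were two-sided, adjusted over all genes (Benjamini-Hochberg), and measure the spread between these lines. The number of arrays limits the precision. Simulated data held 100 genes with a log2 change of 1 and 100 others with a change of 2. The fit called 39% of changes of 1 and 82% of changes of 2 in mock, and 18% and 86% for mean levels. No 2 arrays were copies.

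The rule, the members and the gene lists were chosen with earlier results of these data known. Named genes were the 20 largest mock changes, up to 4 per class, the 6 with the lowest mean change in the mutant lines, the 3 nearest each side of a limit, up to 6 by p for level, and the cell type markers; other members were named after their values were seen. Alternatives were values as deposited, arrays centred on their medians, controls kept in the normalization, other filters, the brightest probe set, other limits, no line block, trended and robust priors, single classes or times, and each line left out. Promoters came from RefSeq (GRCm38.p6), the first listed per gene, and positions from the RefSeq gene table of that assembly. Tables and plots were made with Python 3.11.15, pandas 2.3.3, numpy 2.4.6 and matplotlib 3.10.9.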

Additional observations from a re-analysis of the deposited data

How the results depend on the processing

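The number of genes that met the rule, 39 as reported, was 9 with values as deposited, 59 with a filter on the maximum at the 30th percentile of all values (3.94), 19 with a filter on the mean above 5, 19 and 107 with a mock limit of 1.0 and 0.6, 20 and 64 with a limit of 0.2 and 0.4 for the other lines, and 125 with the limit set on class means. With values as deposited the median of all genes in mock was -0.36, 7 of the 39 genes met the rule, and the mock change of Saysd1 turned to -0.14; the cause was not tested. Of the 35 genes measured at all on that scale 34 stayed above 0. Centring gave 44 genes (33 shared), no filter 56 (27 shared), the brightest probe set 47 (34 shared), and controls kept in the normalization 39 (39 shared). Leaving out 1 line at a time gave 47 to 65, since a condition is then dropped, the most without I53S #1 and I53A #1 (65 and 63). The 534 genes called in mock by limma, in either direction, became 2126 with values as deposited, 255 without a filter, 275 with the filter at the 30th percentile, 805 with the filter on the mean, 1674 with trended and robust priors, 111 with no replicate block and 67 to 241 with 1 line left out. Between 0 and 18 of the 39 genes were called over all settings. For the mean level of mutant against WT lines, limma called 0 genes as reported, 264 with values as deposited (2 of the 39), 1 with centred arrays, 194 on OHT+ arrays only and 0 to 0 with 1 line left out. The other settings run gave 0.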
